A study of Mus musculus with 2 samples.

Results

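The ELAV and CELF families of RNA-binding proteins were described in forebrain of B6NCrl mouse embryos of mixed sex at embryonic day 12.5. The members were the 10 listed genes, Elavl1 to Elavl4 and Celf1 to Celf6, found by symbol among 55536 annotated genes, of which 22028 are protein-coding. PolyA-plus RNA was measured in 2 libraries of one group, with no treatment, mutation or contrast in the labels. Pool 1 came from 120 embryos and pool 2 from 68 embryos, and 10 ng of RNA entered each library. cDNA was primed with oligo-dT, amplified at full length by PCR and fragmented by tagmentation. The tissue is the whole forebrain of pooled embryos, so differences between single embryos, sexes or cell types within it were not measured. Levels are in TPM, the transcript abundance scaled to the same total in each library and corrected for transcript length. Each ± gives the SD of the 2 pools (n = 2). The smallest exact permutation p that flipping the sign of 2 differences can give is 0.5 (two-sided), and no test was run.

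ELAV proteins carry RNA recognition motifs and bind AU-rich and U-rich elements, mostly in 3′UTRs, where they stabilise mRNAs or change their splicing and translation. Elavl1 encodes HuR, which is found in most cells, while Elavl2, Elavl3 and Elavl4 encode HuB, HuC and HuD, the neuronal members used as markers of young neurons. CELF proteins bind GU-rich sequences, promote mRNA decay in the cytoplasm and regulate alternative exons in the nucleus. Celf1 and Celf2 form a broadly expressed branch, and Celf3 to Celf6 a branch found mainly in the nervous system.

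All 10 members were detected, reaching 1 TPM or more in each pool, against 58.9% of all protein-coding genes. By mean TPM, Elavl1 and Celf3 stood at the top of the 10 and Celf6 at the bottom. The level of Celf3 rested almost wholly on annotated transcripts other than complete coding ones, and counted over complete coding transcripts it was the lowest of the 10. In expected counts, and also by mean TPM in an older annotation, Celf3 ranked 8 of the 10. Elavl3 was the 1 member with over 25% more in one pool than in the other, and it was lower in pool 1. The share of all tested genes that differed by that much was 23.5%, and of genes averaging 500 counts or more it was 4.24%.

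The sequences shown first belong to the exon that sets the neuronal ELAV genes apart from Elavl1 in this annotation. Elavl2, Elavl3 and Elavl4 each have a coding exon of 39 bases, in the hinge that joins the second and the third RNA recognition motif. Among annotated Elavl1 transcripts, 0 exons have that length. The exons lie on the minus strand of mm10 at chr4:91254141-91254179 for Elavl2, chr9:22024674-22024712 for Elavl3 and chr4:110209740-110209778 for Elavl4. Capitals mark bases that differ from Elavl2.
Elavl2: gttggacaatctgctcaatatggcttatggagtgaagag
Elavl3: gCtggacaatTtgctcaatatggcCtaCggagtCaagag
Elavl4: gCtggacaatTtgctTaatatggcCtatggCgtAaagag
Elavl3 matched Elavl2 at 34 of the 39 bases and Elavl4 matched it at 33. These and all later sequences were read from the GENCODE M21 transcript sequences, and are given 5′ to 3′ on the transcript.

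Other coding segments that some transcripts hold and others skip are shown next, with the segment in capitals and 12 bases of the spliced transcript on each side in lower case. In each, both forms were measured at 5% or more in either pool, the segment has 12 bases or more, and it keeps the reading frame. Segments of Celf4 and a first exon of Elavl4 were left out. The list is not complete, and further coding exons, such as that which lengthens the N terminus of Celf1, are not in it. The coordinates are those of the capitals: chr4:110206660-110206701 on the minus strand for the 42 bases of Elavl4, chr2:91006620-91006631 on the plus strand for the 12 bases of Celf1, chr2:6549832-6549975 and chr2:6560659-6560670 on the minus strand for the 144 and 12 bases of Celf2, and chr9:59603808-59603870 on the plus strand for the 63 bases of Celf6.
Elavl4 42-base segment: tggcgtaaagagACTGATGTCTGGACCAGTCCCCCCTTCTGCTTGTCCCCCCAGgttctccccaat
Celf1 12-base segment: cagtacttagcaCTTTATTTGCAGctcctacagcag
Celf2 144-base exon: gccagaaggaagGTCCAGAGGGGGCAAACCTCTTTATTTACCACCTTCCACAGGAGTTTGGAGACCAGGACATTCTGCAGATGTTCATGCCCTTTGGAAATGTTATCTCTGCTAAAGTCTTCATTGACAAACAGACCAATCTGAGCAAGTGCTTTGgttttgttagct
Celf2 12-base segment: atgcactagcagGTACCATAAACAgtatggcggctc
Celf6 63-base exon: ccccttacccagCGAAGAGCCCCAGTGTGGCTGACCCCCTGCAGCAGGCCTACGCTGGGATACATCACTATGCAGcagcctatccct
The 144-base exon of Celf2 codes for the start of the third RNA recognition motif. Celf4 has an exon of 144 bases too, and it matched that of Celf2 at 98 bases.

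The predicted proteins were compared by translating the complete coding transcript of highest TPM of each gene and aligning them in pairs. Within the ELAV family the percent identity over aligned residues ran between 71.0% and 90.5% over 6 pairs. The closest pair was Elavl2 and Elavl4, with 324 identical residues, and Elavl1 with 326 residues was the shortest of the 4 proteins. Within the CELF family the identity ran between 45.4% and 81.2% over 15 pairs. Celf1 and Celf2 were the closest pair at 81.2%, and Celf3 and Celf4 followed at 74.8%. Between the families the 24 pairs shared at most 37.8%.

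The forebrain origin was checked on markers. All 5 forebrain markers were detected. The LIM homeobox factor Lhx2 had 153 TPM in pool 1 against 176 TPM in pool 2, and the dorsal factor Emx1 had 55.9 against 69.7 TPM. The ventral factor Dlx2 ran the other way, with 104 TPM in pool 1 against 67.2 TPM in pool 2. Of 4 midbrain and hindbrain markers, 0 were detected, with a sum of 0.98 TPM for pool 1 and 1.16 TPM for pool 2. The 5 neuron markers were all detected, with a sum of 1331 TPM for pool 1 and 1239 TPM for pool 2. The sum of the 5 progenitor markers was 1481 TPM for pool 1 and 1484 TPM for pool 2. Fewer cells of a type and less RNA per cell cannot be told apart in such mixed tissue. Gene counts were 33373843 in pool 1 and 34406648 in pool 2. The biological coefficient of variation between the pools, a single value fitted over 19063 genes with counting noise left out, was 8.50%.

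Elavl1, the broadly expressed ELAV gene, had 241 TPM in pool 1 against 242 TPM in pool 2, and its mean was 242 ± 0.948 TPM (SD, n = 2). The pools were nearly equal. It lies at chr8:4285382-4325413 on the minus strand, and 97.4% of protein-coding genes had a lower mean TPM. It was highest of the 10 also over complete coding transcripts, at 222 ± 1.36 TPM, but not in the older annotation.

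Among the neuronal ELAV genes, Elavl4 had 172 TPM in pool 1 and 145 TPM in pool 2, Elavl2 had 80.7 and 74.1 TPM, and Elavl3 had 44.6 and 57.7 TPM. Elavl4 and Elavl2 were higher in pool 1, and Elavl3 was higher in pool 2. The ranges of the 3 genes did not overlap. They lie at chr4:110203722-110351909, chr4:91250763-91400785 and chr9:22015005-22052023 in the order just named, all on the minus strand. Together they made up 55.2% of the ELAV TPM in pool 1 and 53.3% in pool 2, on average 54.2% ± 1.33. The whole ELAV family had 538 TPM in pool 1 against 519 TPM in pool 2.

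In the broad CELF branch, Celf1 had 143 TPM in pool 1 and 134 TPM in pool 2. Celf1 is a decay-promoting and splicing factor that works against the muscleblind proteins on shared exons. Celf2, its close relative, had 131 TPM in each pool. Celf1 is at chr2:90940382-91019497 on the plus strand and Celf2 at chr2:6539694-7509563 on the minus strand. The ranges of the pair did not overlap, with Celf1 higher in both pools.

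In the neural CELF branch, Celf3 had 196 TPM in pool 1 and 171 TPM in pool 2. Celf4, whose loss causes seizures in mice, had 113 TPM in pool 1 and 103 TPM in pool 2. Celf5 had 33.1 TPM in pool 1 against 29.1 TPM in pool 2, and Celf6 had 13.0 and 11.3 TPM. All 4 read higher in pool 1, and their ranges were apart from each other. Their positions are chr3:94478295-94492198 on the plus strand for Celf3, chr18:25477632-25754157 on the minus strand for Celf4, chr10:81459227-81482709 on the minus strand for Celf5 and chr9:59577917-59607292 on the plus strand for Celf6. The branch made up 56.5% of the CELF TPM in pool 1 and 54.2% in pool 2. The whole CELF family had 628 TPM in pool 1 against 580 TPM in pool 2.

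The order by mean TPM was Elavl1, Celf3, Elavl4, Celf1, Celf2, Celf4, Elavl2, Elavl3, Celf5 and Celf6. Celf3 and Elavl4 were the 1 pair of neighbours whose ranges overlapped between pools, although Celf3 was the higher in each pool. The ranges of every other pair of neighbours were apart, by gaps that 2 pools cannot put a test on. Even Celf6, the lowest, had 609 counts in pool 1 and 587 in pool 2, and 61.5% of protein-coding genes had a lower mean TPM.

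**Figure D1:**
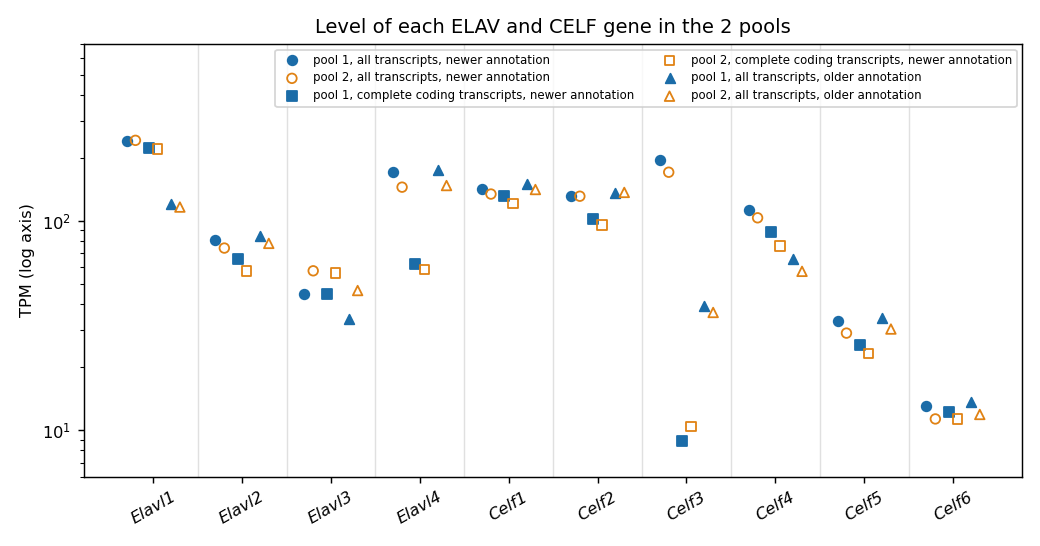
TPM of each gene on a log axis in pool 1 (filled) and pool 2 (open), over all transcripts of the newer annotation (circles), its complete coding transcripts (squares) and the older annotation (triangles). Celf3 drops to 8.84 and 10.4 TPM over complete coding transcripts, while Celf6 stays between 11.3 and 13.7 TPM on all 3 measures.

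The gene level is a sum over annotated transcripts, and its make-up differed widely among the members. A complete coding transcript is one annotated as protein-coding with both its start and its end, and the other classes are incomplete coding, processed without a reading frame, retained intron and nonsense-mediated decay. Complete coding transcripts held between 91.1% and 98.9% of the TPM of Elavl1, Elavl3, Celf1 and Celf6. They held between 75.3% and 79.5% for Elavl2, Celf2, Celf4 and Celf5. For Elavl4 the share was 36.3% in pool 1 and 40.4% in pool 2, and for Celf3 it was 4.51% in pool 1 and 6.10% in pool 2.

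**Figure D2:**
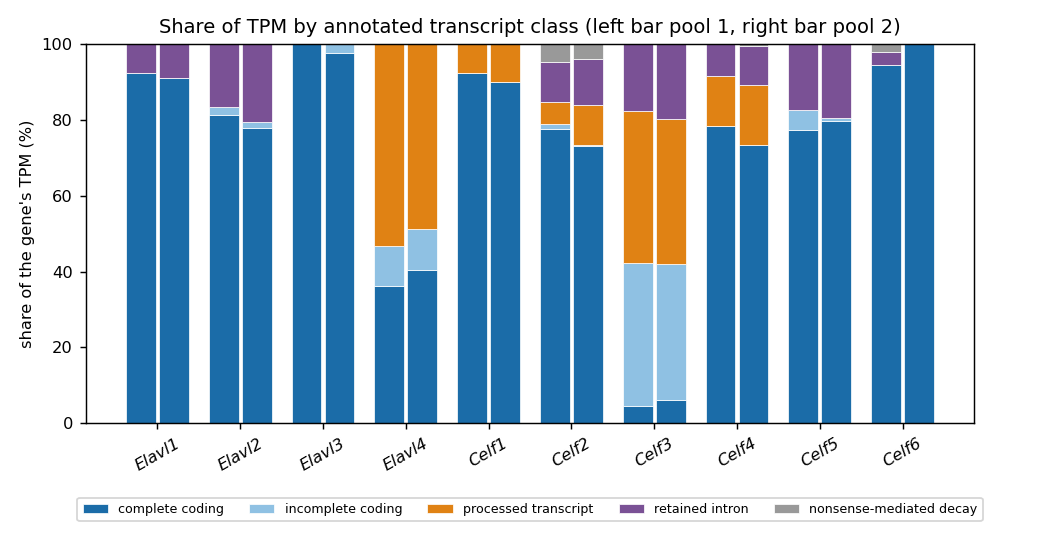
Share of each gene's TPM by annotated transcript class in pool 1 (left bar) and pool 2 (right bar). Celf3 and Elavl4 are the 2 genes with less than 50% of their TPM in complete coding transcripts, in both pools.

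A pair of short transcripts carried most of the Celf3 level. Celf3-207, a processed transcript of 669 bases, had 78.5 TPM in pool 1 and 65.2 TPM in pool 2. Celf3-214, an incomplete coding transcript of 366 bases, had 63.1 TPM in pool 1 and 55.0 TPM in pool 2. Almost all of their bases, 92.8% and 99.7%, lie within exons of complete coding transcripts. The complete coding transcript Celf3-215 had 8.84 TPM in pool 1 against 10.4 TPM in pool 2, and the 4 others of that class were listed at 0. The retained-intron transcripts together held 30.4% of the gene's counts and 18.7% of its TPM on average. One of them, Celf3-212, held 13.8% of the gene's counts but 9.15% of its TPM. Measured in counts, complete coding transcripts held 19.8% of Celf3 in pool 1 and 25.1% in pool 2. TPM divides counts by the transcript length less 99 bases, so a count on a short transcript weighs more.

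Elavl4 had the same feature to a lesser degree. Its processed transcripts Elavl4-211, of 869 bases, and Elavl4-210, of 464 bases, had 49.0 and 42.6 TPM in pool 1 and 42.1 and 28.4 TPM in pool 2. They lie for 82.9% and 74.4% of their length within exons of complete coding transcripts. Together the processed transcripts held 53.4% of the gene's TPM in pool 1 and 48.7% in pool 2, but 17.4% and 15.2% of its counts. The main coding transcript Elavl4-202, for a protein of 380 residues, had 36.8 TPM in pool 1 and 39.7 TPM in pool 2. It held 51.2% of the gene's counts on average.

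For Elavl2, Elavl4, Celf1, Celf2, Celf5 and Celf6 the mean TPM in M21 was between 0.951 and 0.980 times that in the older annotation, GENCODE M4. The other 4 members read higher in M21. Celf3 had a mean of 183 ± 17.9 TPM in M21 and 37.8 ± 1.88 TPM in M4, a ratio of 4.85, with 1.40 times the counts. For Elavl1 the means were 242 TPM in M21 and 118 TPM in M4, a ratio of 2.05, with 1.01 times the counts. M4 holds 1 Elavl1 transcript, of 6030 bases, and M21 adds Elavl1-204, of 2317 bases. Celf4 had 1.75 times and Elavl3 1.27 times the TPM in M21. With M4, Elavl4 came first at 161 ± 19.8 TPM and Celf1 second at 145 ± 6.08 TPM, and their ranges overlapped.

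Over complete coding transcripts alone, a measure added after the data were seen, the order was Elavl1, Celf1, Celf2, Celf4, Elavl2, Elavl4, Elavl3, Celf5, Celf6 and Celf3. The ranges of the neighbours Elavl2 and Elavl4 overlapped on this measure. Elavl2 was higher in pool 1, at 65.49 against 62.25 TPM, but lower in pool 2, at 57.63 against 58.51 TPM. The neuronal share of the ELAV family over complete coding transcripts was 43.6% in pool 1 and 43.8% in pool 2. The share of Celf3 to Celf6 in the CELF family was 36.7% in pool 1 and 35.8% in pool 2. With M4 the neuronal ELAV share was instead higher, at 71.1% in pool 1 and 70.0% in pool 2. The CELF share was lower than the main value with M4, in counts, over protein-coding and over complete coding transcripts, between 30.7% and 46.5% on average.

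The isoforms of the neuronal ELAV genes were described by the share of complete coding transcripts, in TPM, that hold each segment. Transcripts with the 39-base hinge exon printed above made up 73.6% of Elavl2 in pool 1 and 72.9% in pool 2. For Elavl4 they made up 90.9% in pool 1 and 90.8% in pool 2. The pools differed by less than 1 percentage point in both genes. The 42-base extension of the last Elavl4 exon, which follows directly on the hinge exon, was in 79.8% in pool 1 and 82.2% in pool 2. These shares come from the fitted split among annotated transcripts, not from reads counted over junctions.

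Elavl4 transcripts also begin at different first exons. The 2 transcripts that start at position 110287527 held 69.6% of complete coding TPM in pool 1 and 67.8% in pool 2. The 2 that start at 110286889 held 20.8% in pool 1 and 21.7% in pool 2. The most distal start, at 110351909, belonged to 1 transcript with 9.08% in pool 1 and 9.21% in pool 2, and this transcript is also the 1 that lacks the hinge exon. The remaining 2 starts were below 1.5% in both pools.

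Elavl3 had 2 complete coding transcripts. Elavl3-201, for a protein of 367 residues, had 31.4 TPM in pool 1 and 43.1 TPM in pool 2. Elavl3-203 runs on past the hinge exon into the intron, ends there and codes for 250 residues, and it had 13.2 TPM in pool 1 and 13.3 TPM in pool 2. The longer form was lower in pool 1, and the shorter one was alike in both. The longer form made up 70.5% of complete coding TPM in pool 1 and 76.4% in pool 2. In Elavl2, the leading transcript Elavl2-209 held 34.9% ± 0.724 of the gene's TPM, and the retained-intron transcript Elavl2-215 held 14.3% in pool 1 and 17.4% in pool 2.

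Celf1 showed the widest gap between pools among the segments drawn in the plot of isoform shares. Transcripts with the 12-base segment made up 62.1% of complete coding TPM in pool 1 and 71.1% in pool 2. The skipping form, Celf1-204, had 49.9 TPM in pool 1 and 35.0 TPM in pool 2. Celf1-205, which differs from it by that segment and by 3 bases at another exon's edge, had 5.83 TPM in pool 1 and 11.8 TPM in pool 2. Celf1-206 had 28.4 and 27.4 TPM and Celf1-201 had 19.7 and 18.9 TPM, so these 2 moved little between pool 1 and pool 2. A 513-residue protein, with a longer N terminus than the 486-residue one, was encoded by 20.99% in pool 1 and 20.6% in pool 2.

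In Celf2 the 144-base exon of the third RNA recognition motif was present in 71.7% of complete coding TPM in pool 1 and 69.7% in pool 2. Celf2-206, which holds it and codes for 526 residues, led with 62.3 TPM in pool 1 and 58.3 TPM in pool 2. Celf2-224 skips it, holds the 12-base segment and codes for 440 residues, and it had 20.6 TPM in pool 1 and 20.3 TPM in pool 2. The 12-base segment was present in 21.9% in pool 1 and 22.7% in pool 2 by TPM, but in 9.90% and 10.1% by counts. The shares of the exon and of the segment leave out the complete coding Celf2-203, which ends before both. Celf2-203 had 0 TPM in pool 1 and 2.40 TPM in pool 2. Over all complete coding transcripts, those starting at position 6884996 made up 68.5% in pool 1 and 68.7% in pool 2.

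In Celf4 the exon of 144 bases is annotated in parts of 84 and 60 bases. The 84-base part was in 80.6% of complete coding TPM in pool 1 and 79.7% in pool 2, and the 60-base part in 45.0% in pool 1 and 46.8% in pool 2. No single form dominated, since the leading Celf4-202 held 24.7% ± 0.123 of the gene's TPM. In Celf5 the leading Celf5-201 had 22.7 TPM in pool 1 against 21.7 TPM in pool 2, which was 71.6% ± 4.04 of the gene's TPM. In Celf6 the 63-base exon was in 4.97% in pool 1 and 8.93% in pool 2. Celf6-201 had 7.39 TPM in pool 1 against 7.07 TPM in pool 2, and Celf6-202, which starts at a later exon and codes for 344 residues, had 4.27 TPM in pool 1 and 3.23 TPM in pool 2.

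**Figure D3:**
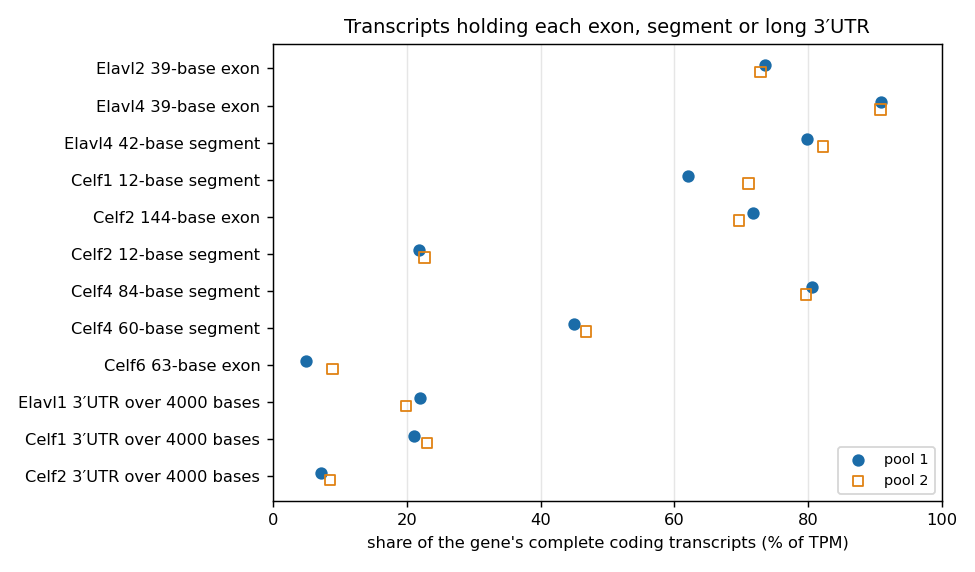
Share of complete coding TPM held by transcripts with each exon, segment or long 3′UTR, in pool 1 (filled circles) and pool 2 (open squares). The lines of the Celf2 exon and segment leave out Celf2-203, which ends before both. The pools lie within 4 percentage points of each other on every line except the Celf1 12-base segment, at 62.1% in pool 1 and 71.1% in pool 2.

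Long and short 3′UTRs were measured for 3 broadly expressed members. Elavl1-204, with a 3′UTR of 1257 bases, had 174 TPM in pool 1 and 177 TPM in pool 2. Elavl1-201, with a 3′UTR of 4218 bases, had 48.9 TPM in pool 1 and 44.0 TPM in pool 2. Both code for 326 residues. The long form held 21.9% of complete coding TPM in pool 1 and 19.9% in pool 2, and 41.7% and 38.7% of counts. The 2 transcripts also start at different first exons, at 4312619 and 4325413 in that order, so the start and the end of the mRNA were not measured apart. In Celf1, 3′UTRs over 4000 bases held 21.1% in pool 1 and 23.0% in pool 2, and in Celf2 they held 7.12% in pool 1 and 8.52% in pool 2. The Celf2 share depends on the limit, since the 3′UTR of the leading Celf2-206 has 3851 bases and falls just under it. Celf2-206 had 62.3 TPM in pool 1 and 58.3 TPM in pool 2.

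Both families bind elements that their own mRNAs may carry, so 3′UTRs were searched on the transcript strand for the AU-rich pentamer ATTTA, the AU-rich nonamer TTATTTATT, which contains the pentamer, and the GU-rich heptamer TGTTTGT. The window was the last 500 bases of the longest annotated 3′UTR of each gene, and the background was 14146 protein-coding genes with a window of that length. The pentamer was in 7 of 10 members, against 59.3% of all genes. The nonamer was in 2 members, Elavl1 and Celf3, against 3.48% of all genes. The heptamer was in 2 members, Elavl1 and Celf5, against 13.4%. Elavl1 held 8 nonamers, most of them overlapping a neighbour and all within the long form: the whole 3′UTR of Elavl1-201 had 8 and that of Elavl1-204 had 0. One nonamer of Elavl1, at chr8:4285788-4285816 on the minus strand, that of Celf3, at chr3:94492115-94492143 on the plus strand, and the heptamer of Celf5, at chr10:81459330-81459358 on the minus strand, are shown with the motif in capitals. These coordinates are those of the whole printed stretch, flanks included.
Elavl1: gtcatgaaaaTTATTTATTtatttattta
Celf3: ttctctactcTTATTTATTgagttttact
Celf5: cccgtacctccTGTTTGTgtgcgaagtag
The last 50 bases of Elavl1-201 hold the polyadenylation hexamer AATAAA as their final bases, and those of Elavl1-204 do not hold it. A match describes the letters in these windows and no more.

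Between the pools, 1 of 10 members had over 25% more in one pool than in the other in TMM-scaled counts, in which the counts of each library are divided by a size factor. Among all 19063 genes that averaged 10 counts or more, 23.5% differed by that much, and 11.2% differed by more than 50%, which 0 members did. Among the 9590 genes that averaged 500 counts or more, a limit chosen after seeing that all members passed it, 4.24% differed by more than 25%. Elavl3 had 4102 counts in pool 1 and 5558 in pool 2, a log2 ratio of pool 1 over pool 2 of -0.36. Its 95% exact binomial interval, from -0.42 to -0.30, takes each count as independent and covers no other source of spread. A lower ratio was found in 14.1% of the 19063 genes. By transcript, it was -0.44 for Elavl3-201 and 0.01 for Elavl3-203.

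The other 9 members ran the other way by a small amount, with log2 ratios between 0.05 for Celf2 and 0.17 for Celf4. Of all 19063 genes, 49.4% were higher in pool 1 with this scaling. The median over the 10 members was 0.12, against -0.0026 over all genes. Scaling to the ERCC spike-ins moved the median of all genes to -0.17 and left 17.6% of them higher in pool 1. It turned the signs of 8 of these 9 members, leaving Celf4 at 0.01. In the ratio of deposited TPM + 1, Elavl1 and Celf2 were also slightly below 0. Elavl3 was lower in pool 1 under each of the 6 alternatives tried, between -0.36 and -0.53. Of 5 neuron markers, 3 were higher in pool 1. Dcx had a log2 ratio of 0.22, Tubb3 of 0.13, Stmn2 of -0.04 and Rbfox3 of -0.15. The forebrain markers Emx1 and Dlx2 had log2 ratios of -0.31 and 0.66. All 3 red cell, all 3 mesenchyme and all 3 skeletal muscle markers were lower in pool 1: the sum of the 3 red cell genes was 5908 TPM for pool 1 and 7990 TPM for pool 2, and that of the 3 mesenchyme genes 466 TPM for pool 1 and 548 TPM for pool 2. The muscle genes summed to 2.32 TPM for pool 1 and 6.90 TPM for pool 2. The part of these markers in the Elavl3 difference was not tested.

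**Figure D4:**
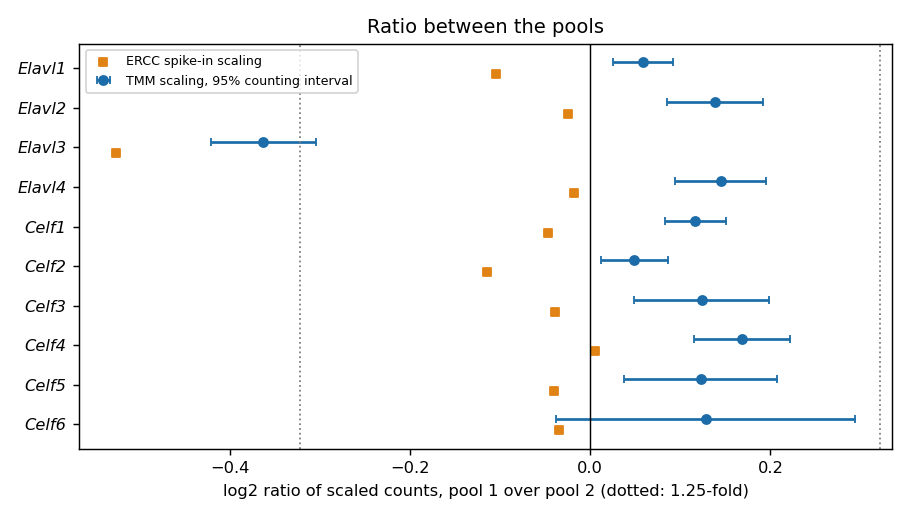
Log2 ratio of scaled counts, pool 1 over pool 2, for each gene with TMM scaling (circles) and with ERCC spike-in scaling (squares). Bars are 95% exact binomial intervals that take each count as independent and cover no other source of spread. Elavl3 lies at -0.36 with TMM scaling, left of the dotted line for a 25% excess in pool 2, and the other 9 genes lie between 0.05 and 0.17.

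Known partners of ELAV proteins were all measured, with 7 of 7 detected and a median of 167 TPM. Set, a protein ligand of HuR, had 604 TPM in pool 1 against 608 TPM in pool 2, and its fellow ligands Anp32a and Anp32b had 159 and 243 TPM in pool 1 and 175 and 235 TPM in pool 2. The export factors Xpo1 and Nxf1 had 134 and 176 TPM in pool 1 and 133 and 162 TPM in pool 2. Carm1, a methyltransferase that modifies HuR and HuD, had 42.7 TPM in pool 1 and 48.9 TPM in pool 2. Igf2bp1, which binds mRNAs together with HuD, had 80.2 TPM in pool 1 and 76.7 TPM in pool 2.

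Other proteins that bind AU-rich elements were uneven in level, with 7 of 7 detected and a median of 52.2 TPM. Hnrnpd, which encodes AUF1, was highest, with 362 TPM in pool 1 against 403 TPM in pool 2. The translational repressor Tia1 had 263 TPM in pool 1 against 267 TPM in pool 2, and its relative Tial1 had 30.8 and 31.2 TPM. Among the decay factors, Zfp36l1 had 75.3 TPM in pool 1 and 71.6 TPM in pool 2, Khsrp had 55.1 and 49.2 TPM, Zfp36l2 had 7.60 and 8.33 TPM and Zfp36 had 4.31 and 3.99 TPM. The mean of Elavl1 in M21 thus stood below those of Hnrnpd and Tia1 and above those of the other 5. This order was not examined in M4, where Elavl1 had a mean of 118 TPM.

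The muscleblind genes, whose proteins oppose CELF proteins at many exons, were lower than Celf1 and Celf2. Mbnl1 had 31.1 TPM in pool 1 and 29.2 TPM in pool 2, Mbnl2 had 23.0 and 25.4 TPM, and Mbnl3 had 4.82 and 4.64 TPM. Parn, the deadenylase recruited by CELF1, had 29.8 TPM in pool 1 against 31.5 TPM in pool 2.

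Of 8 mRNAs reported as bound by ELAV proteins, 7 were detected. Gap43, the growth cone protein whose mRNA HuD stabilises, had 176 TPM in pool 1 and 163 TPM in pool 2. Msi1 had 142 TPM in pool 1 against 126 TPM in pool 2, and Mapt, which encodes tau, had 105 and 90.4 TPM. Cdkn1a had 23.1 TPM in pool 1 against 26.6 TPM in pool 2, Nova1 had 20.7 against 22.1 TPM, and Ache had 2.61 ± 0.240 TPM. Bdnf was below the detection limit of 1 TPM, with 0.67 TPM in pool 1 against 0.83 TPM in pool 2. Across the 4 gene lists, 0 of 26 genes differed by more than 25% between the pools in scaled counts, against the 23.5% of all genes and 4.24% of well-counted genes given above.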

How the data were processed

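For each library the authors deposited tables of genes and transcripts on mm10, with GENCODE M21 (the main annotation here) and M4. Per the file headers, deposited expected counts are estimated reads, TPM and FPKM are length-scaled abundances, percent is each transcript's share of its gene (not used), and the posterior mean TPM was treated as a score. No aligner, quantifier or use of strand is given in the sources used here. All 55536 M21 gene identifiers matched the annotation, and 42462 of 43346 in M4. ERCC spike-ins took 3.58% of counts in pool 1 and 3.28% in pool 2. Entries that name no gene held 5.74e-05% in pool 1 and 9e-05% in pool 2, and were left out.

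Expected counts were rounded for TMM scaling with edgeR 4.0.16 (prior count 1, genes averaging 10 counts or more) and DESeq2 1.42.0 size factors, and the ratio was checked on simulated data. Python 3.11.15, pandas 2.3.3, scipy 1.17.1 and Biopython 1.88 (global alignment, BLOSUM62) did the rest. Intervals take each count as an independent molecule, which PCR copies are not, so they may be too narrow even for counting error. Across the 19063 genes the chi-square between the pools was 8.59 per gene, a spread above that of counting error alone. Nothing was tested, as there is 1 group of 2 pools. The labels call the pools biological replicates. Members and lists were chosen with earlier results of these data known. All members of each list, and transcripts with at least 10% of a gene's TPM or counts, could be named, and values of 2 list genes are not reported here. Other transcripts were named after their values were seen.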

Additional observations from a re-analysis of the deposited data

How the results depend on the processing

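All 10 members were detected in M4, at limits of 0.5 and 5 TPM, over protein-coding transcripts and in each pool alone. The neuronal ELAV share, 54.24%, was 70.55% in M4, 46.3% over protein-coding transcripts and 43.72% over complete coding transcripts. The Celf3 to Celf6 share, 55.35%, was 33.86% in M4, 30.67% in expected counts, 46.5% over protein-coding and 36.26% over complete coding transcripts. Posterior mean TPM moved neither share by more than the SD of the pools. FPKM is proportional to TPM within a library, so it gives the same shares by construction. Leaving out transcripts under 300 bases took out Celf1-211, of 271 bases, and left both shares nearly unchanged. The short transcripts of Celf3 and Elavl4 named above are longer than that and stayed in, so this setting does not bear on them. Without either pool the shares ran from 53.29% to 55.18% and from 54.23% to 56.47%. The number of members that kept their rank by TPM was 3 in M4, 5 over protein-coding transcripts and 1 over complete coding transcripts, and 10 in each pool alone. The main transcript's share of its gene, a median of 42.58% over members, was 49.63% in expected counts, 66.66% in M4, 62.4% over complete coding transcripts, and between 41.32% and 43.83% without either pool. M4 has fewer transcripts for Elavl1, Elavl3, Celf3 and Celf4; other causes were not tested. The number of members differing by more than 25% between the pools was 1 under all 6 other scalings, priors, filters and tables, and 0 at 50%. With a window of 1000 bases the GU-rich heptamer was found in 4 members in place of 2, the nonamer in the same number and the pentamer in 9 in place of 7. The shares of all genes were then 22.9%, 6.12% and 79.0% in that order. No paired analysis was possible because the 2 pools form 1 group. The lowest member had 587 counts. With 2 pools no difference could be tested.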

Other observations

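Several genes overlap the members, and since the use of strand in counting is not given, their reads could not be told apart with certainty. On the opposite strand, Ccl25 shares exonic bases with Elavl1 and had 16.3 TPM in pool 1 and 18.9 TPM in pool 2. Riiad1 shares exonic bases with Celf3 and had 14.1 TPM in pool 1 and 15.4 TPM in pool 2. Gm16105, antisense to Celf5, had 3.06 TPM in pool 1 and 0.95 TPM in pool 2. Gm49318 shares exons with Elavl3 on the same strand and had 0.14 TPM in pool 1 and 0.18 TPM in pool 2.

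By distance in log2(TPM + 1) over the 2 pools, the protein-coding genes outside the families nearest to Elavl4 were Adgrg1, with 173 TPM in pool 1 against 141 TPM in pool 2, and Rab18, with 169 TPM in pool 1 against 149 TPM in pool 2. Those nearest to Celf3 were Plppr3, with 195 TPM in pool 1 against 175 TPM in pool 2, and Ncapd2, with 192 TPM in pool 1 against 173 TPM in pool 2. Within a distance of 0.1 there were 9 such genes for Elavl4 and 18 for Celf3, and 2 pools of one tissue give this likeness little content.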
